A study of Mus musculus with 18 samples.

Results

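The 9 genes described here are imprinted genes, most of them under control regions known for CTCF binding: H19, Igf2, Kcnq1ot1, Cdkn1c, Dlk1, Meg3, Peg3, Mest and Grb10. They were chosen by name and not by a measured value out of 26032 annotated mouse genes on the autosomes and X. Earlier results of these data were known at the time. For each gene, peaks were collected within 5 kb of a transcript start, in the gene body and up to 50 kb beyond it, on the mm9 build. Peaks of the 14 lists that overlapped were merged into sites. Of 346850 sites in all, 167 lay in the windows of these genes: 55 near a start, 15 elsewhere in a body and 97 in a flank.

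An imprinted gene is read from 1 parental copy, and the choice is set by DNA methylation at a control region. At H19 and Igf2 this works through CTCF, which binds the unmethylated maternal control region, stops the extrusion of chromatin loops by the ring-shaped cohesin complex and keeps distal enhancers away from Igf2. RAD21 is a core subunit of that ring, and NIPBL is the factor that loads cohesin and drives its motion. Peaks of RAD21 therefore tend to mark places where cohesin halts, and peaks of NIPBL tend to lie at active promoters and enhancers.

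The cells were mouse pro-B cells transformed by v-Abl, that is, B cell precursors immortalized by a viral Abl kinase. All groups shared a JH deletion, dCas9 expression, an Emu-Bcl2 transgene, which an immunoglobulin enhancer drives, and RAG2 deficiency. All were held for 4 days in 3 uM STI-571, an Abl inhibitor that stops their cycling. RAD21 was precipitated in dCas9 block cells, which also expressed the Sg1-sgRNA (2 libraries), in dCas9 control cells without it (2), in Ig2b-del/del cells (3) and in Ig2b wild type cells (3). NIPBL was precipitated in dCas9 block cells (2) and in dCas9 control cells (2). The series asks how loop extrusion serves recombination at the immunoglobulin heavy chain locus; that locus lies on chromosome 12, as do Dlk1 and Meg3, and no member lies inside it. Nothing in the labels says whether replicates were separate cultures or whether a line was 1 clone, so the p-values measure the spread of these libraries alone, which may be technical. The parental copies cannot be told apart in any of these lists.

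The RAD21 lists held 44783 to 82776 peaks and covered 11.57 to 34.39 Mb, and the NIPBL lists held 63153 to 123573 peaks over 20.33 to 29.80 Mb. Read depth per library was unknown. The fold of a peak is the authors' own MACS2 enrichment value and is not on 1 scale between lists, so folds below describe peaks within each list. NIPBL block replicate 1 had a lowest fold of 3.36 and a median of 3.774. The other NIPBL lists had lowest folds of 2.688 to 2.78 and medians of 2.828 to 2.979. Where folds of groups are set side by side, such differences between lists are part of the comparison. By their peak names, the RAD21 dCas9 and NIPBL lists had a control library. The Ig2b lists name none and carry a mark for removed duplicates. Presence in all 10 RAD21 libraries therefore spans both kinds of list. The longest NIPBL list was that of block replicate 2. A difference between the RAD21 and NIPBL lists holds the antibody and the peak calling as well as the protein, and these cannot be told apart. Peaks near starts of 10 pro-B marker genes were present in all 10 RAD21 libraries at 7 and in all 4 NIPBL libraries at 9. Those counts were 1 and 3 for 6 T cell markers, with no NIPBL peak at Cd3e, and 3 and 5 for 6 myeloid markers. Presence of these peaks is no measure of expression, and no RNA was measured.

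The sequences that follow were read from the plus strand of mm9 and show the sites that carry the results: the sites upstream of H19, the strongest RAD21 site of 4 domains and the sites at or near the starts of Kcnq1ot1, Cdkn1c and Meg3. Each is 200 bases long, centred on the motif match where there was one and otherwise on the stretch covered by the most libraries. Centred in this way, the H19 3.4 kb sequence runs past the end of its site. Capitals mark matches to 2 motifs. The H19-type motif, the form of the CTCF site known from the H19 control region, is CCGCG, any base, GG, any base and GGCAG. The core motif, a core of the general CTCF site, is CCA, any 2 bases, AG, any 2 bases and GGC. Both were searched on both strands, and no printed match of one overlapped a match of the other.
H19 2.4 kb site (chr7:149766576-149766775): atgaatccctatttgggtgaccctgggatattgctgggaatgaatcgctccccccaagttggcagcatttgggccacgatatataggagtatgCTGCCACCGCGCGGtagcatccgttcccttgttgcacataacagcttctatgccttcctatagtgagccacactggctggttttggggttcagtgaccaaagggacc
H19 3.4 kb site (chr7:149767846-149768045): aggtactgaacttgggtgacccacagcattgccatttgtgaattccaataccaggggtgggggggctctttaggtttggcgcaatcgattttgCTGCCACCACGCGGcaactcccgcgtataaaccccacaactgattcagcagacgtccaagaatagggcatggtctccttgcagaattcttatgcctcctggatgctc
Igf2 8.8 kb site (chr7:149861657-149861856): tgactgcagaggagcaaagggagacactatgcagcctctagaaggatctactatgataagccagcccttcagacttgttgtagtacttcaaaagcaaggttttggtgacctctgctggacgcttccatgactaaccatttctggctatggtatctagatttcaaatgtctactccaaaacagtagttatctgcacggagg
Kcnq1ot1 start site (chr7:150482292-150482491): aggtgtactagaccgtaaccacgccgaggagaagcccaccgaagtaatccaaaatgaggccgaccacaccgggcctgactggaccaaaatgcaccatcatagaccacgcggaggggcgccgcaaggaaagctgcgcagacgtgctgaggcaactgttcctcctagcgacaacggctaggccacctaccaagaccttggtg
Cdkn1c 2.8 kb site (chr7:150649891-150650090): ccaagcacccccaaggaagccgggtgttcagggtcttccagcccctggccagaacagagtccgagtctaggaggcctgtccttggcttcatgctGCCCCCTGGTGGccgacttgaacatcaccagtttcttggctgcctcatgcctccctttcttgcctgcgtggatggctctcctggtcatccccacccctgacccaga
Cdkn1c 5.0 kb site (chr7:150652309-150652508): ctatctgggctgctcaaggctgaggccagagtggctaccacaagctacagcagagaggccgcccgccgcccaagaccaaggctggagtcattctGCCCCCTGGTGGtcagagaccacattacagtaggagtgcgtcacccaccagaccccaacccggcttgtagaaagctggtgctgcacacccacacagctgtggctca
Dlk1 14.5 kb site (chr12:110676051-110676250): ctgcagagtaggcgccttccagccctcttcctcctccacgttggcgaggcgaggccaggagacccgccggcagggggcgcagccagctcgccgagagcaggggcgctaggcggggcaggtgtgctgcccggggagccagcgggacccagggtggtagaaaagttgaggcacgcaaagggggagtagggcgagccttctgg
Meg3 start site (chr12:110781179-110781378): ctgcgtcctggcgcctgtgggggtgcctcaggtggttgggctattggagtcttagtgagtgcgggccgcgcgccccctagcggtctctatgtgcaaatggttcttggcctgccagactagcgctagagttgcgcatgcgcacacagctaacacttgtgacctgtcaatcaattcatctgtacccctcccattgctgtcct
Grb10 63.0 kb site (chr11:11873454-11873653): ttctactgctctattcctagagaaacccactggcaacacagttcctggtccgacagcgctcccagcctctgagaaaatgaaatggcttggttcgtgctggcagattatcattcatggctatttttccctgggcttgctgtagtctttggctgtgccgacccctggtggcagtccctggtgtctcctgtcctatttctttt

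The H19-type motif was rare. It occurred in 36 of all 346850 sites (0.0104%) and in 2 of the 167 member sites, the H19 2.4 kb and 3.4 kb sites. On the minus strand their matches read CCGCGCGGTGGCAG at chr7:149766669-149766682 and CCGCGTGGTGGCAG at chr7:149767939-149767952. Of the 36 sites, 7 had a peak in all 10 RAD21 libraries, and the 2 H19 sites were among these 7. These counts, and those of the core motif below, take in whole sites. Within the 200 bases around the stretch covered by the most libraries, the H19-type motif occurred in 11 of all sites and in 1 member site. The core motif occurred in 8.25% of all sites, in 43.5% of all sites with a peak in every RAD21 library and in 3 of the 12 such member sites, all 3 upstream of Cdkn1c. A match describes letters in the sequence, and CTCF itself was not measured here.

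H19 is a maternally expressed noncoding RNA, and its control region lies just upstream of it. Both H19 upstream sites had a RAD21 peak in all 10 RAD21 libraries and in no NIPBL library. Both were intergenic in the annotation, at chr7:149766459-149766876, 2411 bp upstream of the H19 start, and at chr7:149767407-149767986, 3359 bp upstream. At the 2.4 kb site the RAD21 fold was 5.79 and 8.15 in block libraries and 4.4 and 9.49 in control libraries. There it was 5.01, 3.7 and 5.25 in Ig2b deleted libraries, against 6.26, 5.71 and 4.63 in Ig2b wild type libraries. The groups overlapped in both comparisons.

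At the 3.4 kb site the RAD21 fold was 5.75 and 6.43 in block libraries, against 4.41 and 6.9 in control libraries, and 7.69, 8.29 and 4.61 in Ig2b deleted libraries, against 5.86, 5.53 and 5.23 in Ig2b wild type libraries. Again the groups overlapped. The RAD21 peaks of the dCas9 libraries covered 206 and 319 bp in block and 287 and 418 bp in control libraries at the 2.4 kb site, against 0 bp in every NIPBL library. At the 3.4 kb site they covered 419 and 267 bp in block and 260 and 285 bp in control libraries, again against 0 bp in every NIPBL library. A site was fitted where its mean over the dCas9 libraries was at least 100 bp. These sites reached that mean through RAD21 alone, so no test is given for them, nor for any other site at which 1 protein was under 100 bp on average.

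The reverse held at a site 44.2 kb downstream of the H19 start, over an exon and the start of Mrpl23, which encodes a mitochondrial ribosomal protein. RAD21 had a peak there in 3 of 10 libraries, with folds from 4.16 to 5.53. NIPBL had a peak in all 4, with folds of 7.54 and 6.22 in block libraries and 7.2 and 5.54 in control libraries. RAD21 covered 0 and 183 bp in block and 0 and 248 bp in control libraries, against NIPBL with 999 and 1086 bp in block and 505 and 509 bp in control libraries. The difference, RAD21 minus NIPBL, was −2.23 on the log2(bp + 100) scale (limma, adjusted p = 0.00670), and every RAD21 library lay below every NIPBL library. Within the NIPBL lists, 91.7% to 98.4% of peaks had a lower fold than this one.

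Igf2 encodes a paternally expressed fetal growth factor. The RAD21 sites seen most often in its window lay upstream of it; the remaining one, between H19 and Igf2, had peaks in 3 RAD21 libraries. The 5.3 kb site (chr7:149857996-149858509, 5275 bp upstream) and the 8.8 kb site (chr7:149861560-149861947, 8839 bp upstream) were intergenic and had peaks in all 10 RAD21 libraries and in no NIPBL library. At the 8.8 kb site the RAD21 fold was 7.55 and 13.6 in block libraries, against 6.84 and 11.7 in control libraries, and 8.95, 7.69 and 8.09 in Ig2b deleted libraries, against 5.7, 7.24 and 6.08 in Ig2b wild type libraries. The 3 deleted libraries were all above the 3 wild type libraries at this site, as folds of deleted and wild type libraries were apart, in either direction, at 37.5% of the 28603 sites with a peak in all 6. Block and control overlapped; their RAD21 folds were apart at 8.69% of the 38068 sites with a peak in all 4 of their libraries.

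At the 5.3 kb site the RAD21 folds ran from 4.16 to 11.8, with a median of 6.17. Another site, 47867 bp upstream and just inside the 50 kb limit, had peaks in 9 of 10 RAD21 libraries and in no NIPBL library. Within 5 kb of an Igf2 transcript start, by contrast, no RAD21 library had a peak and all 4 NIPBL libraries had one, though not at the same place: the 2 sites there with more than 1 library had 2 NIPBL libraries each, with folds from 2.69 to 3.36.

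**Figure D1:**
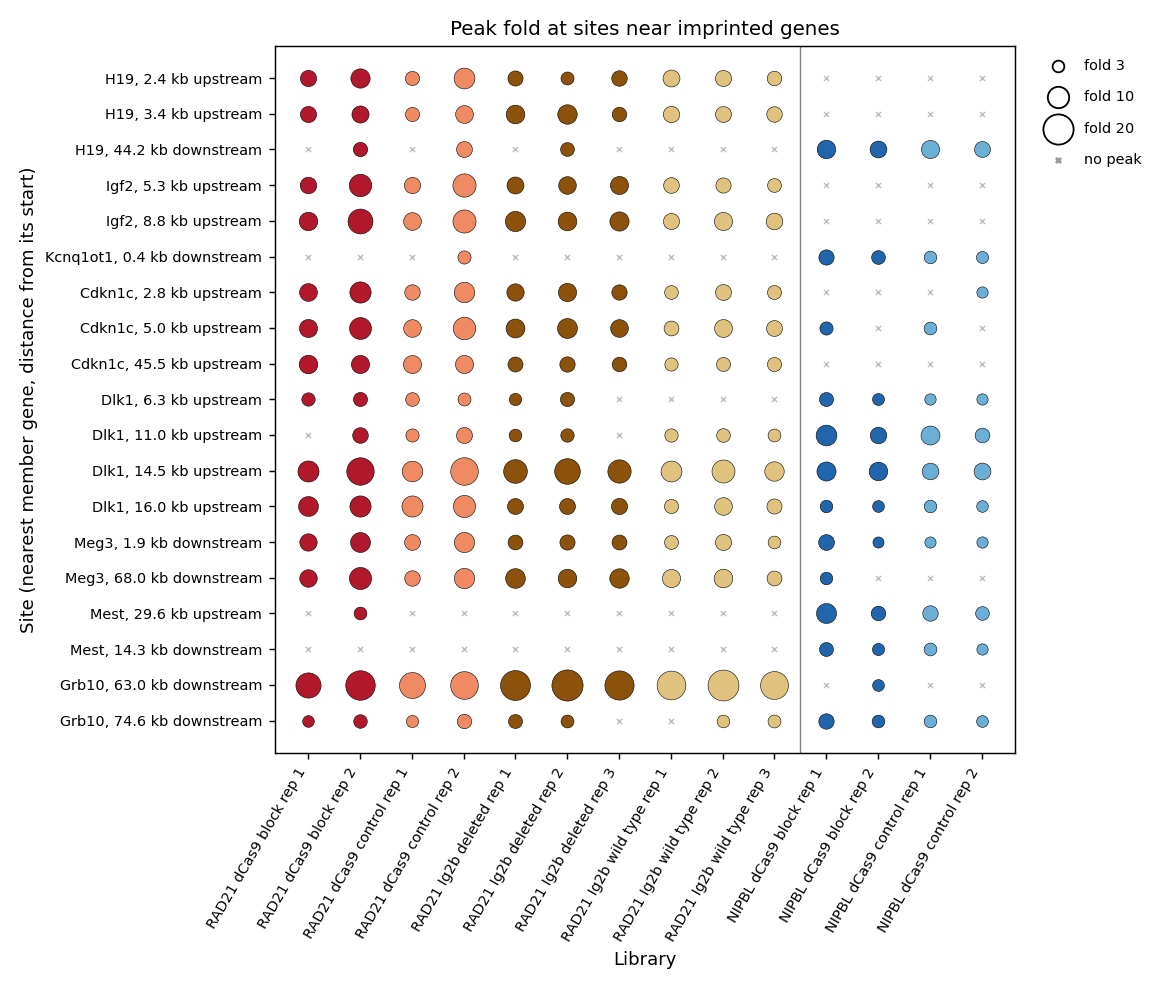
Peak fold (circle area, the authors' values) at the 19 sites of the 9 windows that had a peak in all 10 RAD21 or all 4 NIPBL libraries, by library, with RAD21 left of the line and NIPBL right of it; a cross marks no peak. The H19 and Igf2 upstream sites have circles in every RAD21 column and crosses in every NIPBL column, the Kcnq1ot1 and Mest sites have circles in every NIPBL column and in at most 1 RAD21 column, and the Dlk1 sites have circles in every NIPBL column and in 6 to 10 RAD21 columns.

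Kcnq1ot1 is a paternally expressed antisense RNA inside Kcnq1 that silences its neighbours, among them Cdkn1c. Its start carried little RAD21 and steady NIPBL. The site 350 bp downstream of the start (chr7:150481371-150482102, in an intron of Kcnq1) had a RAD21 peak in 1 of 10 libraries, control replicate 2, with a fold of 3.78. The NIPBL fold there was 5.1 and 4.14 in block libraries, against 3.48 and 3.23 in control libraries. Both block values lay above both control values, as NIPBL folds of block and control were apart, in either direction, at 46.5% of the 23499 sites with a NIPBL peak in all 4 libraries. The block difference of the covered length in the window did not pass. At the site RAD21 covered 0 and 0 bp in block and 0 and 76 bp in control libraries, against NIPBL with 288 and 680 bp in block and 546 and 573 bp in control libraries.

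A second site lay over the Kcnq1ot1 start itself (chr7:150482244-150482553) and had peaks in 2 RAD21 and 3 NIPBL libraries, with folds of 3.47 and 3.61 for RAD21 and from 2.98 to 4.61 for NIPBL. It was too short on average to be tested.

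Cdkn1c encodes p57, a maternally expressed inhibitor of cyclin-dependent kinases. Upstream of it stood a row of RAD21 sites. Those at 2.8 kb (chr7:150649780-150650191), 5.0 kb (chr7:150652002-150652617) and 45.5 kb (chr7:150692470-150692974) had peaks in all 10 RAD21 libraries and in 1, 2 and 0 NIPBL libraries, and each held the core CTCF motif. At the 2.8 kb site the RAD21 fold was 6.92 and 9.85 in block libraries, against 5.24 and 9.18 in control libraries, and 6.57, 7.33 and 5.13 in Ig2b deleted libraries, against 4.11, 5.56 and 4.29 in Ig2b wild type libraries. The ranges overlapped in both comparisons. The only NIPBL peak there, in control replicate 2, had a fold of 2.78.

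At the 2.8 kb site RAD21 covered 302 and 406 bp in block and 292 and 409 bp in control libraries, against NIPBL with 0 and 0 bp in block and 0 and 149 bp in control libraries. Sites 8.9 kb and 19.4 kb upstream of Cdkn1c had peaks in 8 and 9 RAD21 libraries and in no NIPBL library, and both also held the core motif. Over the body of Cdkn1c, in contrast, 842 bp downstream of the start, lay a site with no RAD21 peak and with NIPBL peaks in 3 libraries (folds 2.84 to 3.39).

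Dlk1, a paternally expressed transmembrane protein related to Notch ligands, had 4 upstream sites at which both proteins had peaks. At 14.5 kb upstream (chr12:110675756-110676553, intergenic) all 14 libraries had a peak. The RAD21 fold was 9.72 and 16.5 in block libraries, 9.28 and 16.7 in control libraries, 12.3, 14.4 and 11.9 in Ig2b deleted libraries and 9.53, 11.6 and 8.26 in Ig2b wild type libraries. Block and control overlapped. All deleted libraries lay above all wild type libraries. Folds of these groups were apart, in either direction, at 37.5% of the 28603 sites with a peak in every library of both. The NIPBL fold was 7.98 and 7.59 in block libraries, against 6.07 and 6.2 in control libraries. The NIPBL groups did not overlap either, as at 46.5% of sites with a NIPBL peak in all 4 libraries. These were high values in their own lists: 89.1% to 98.9% of RAD21 peaks and 93.1% to 98.7% of NIPBL peaks had a lower fold.

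The site 16.0 kb upstream of Dlk1 (chr12:110674441-110675052) also had a peak in all 14 libraries, with RAD21 folds from 4.37 to 10.7 and NIPBL folds from 2.95 to 3.47. At 11036 bp upstream the ranks were the other way round. The RAD21 peaks of 8 libraries, with folds from 3.53 to 5.55, had 21.9% to 65.3% of their lists below them, and the NIPBL peaks of all 4 libraries, with folds from 4.76 to 9.41, had 94.3% to 99.0% of their lists below them. A further site, 6.3 kb upstream, had peaks in 6 RAD21 and 4 NIPBL libraries.

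Covered length was higher in RAD21 than in NIPBL at 14.5 kb (log2 difference 0.95, adjusted p = 0.000901), at 16.0 kb (0.86, adjusted p = 0.00672) and at 6.3 kb (0.92, adjusted p = 0.00618). These calls were lost with quantile normalization, which gave 0.71 at 14.5 kb (adjusted p = 0.0703), 0.17 at 16.0 kb (adjusted p = 0.775) and −0.31 at 6.3 kb (adjusted p = 0.441). With all 10 RAD21 libraries the values were 0.48 at 16.0 kb (adjusted p = 0.0581) and 0.02 at 6.3 kb (adjusted p = 0.963), and with lists matched in length 0.67 at 6.3 kb (adjusted p = 0.252), where NIPBL was then under 100 bp on average. At 11036 bp the difference was −0.96 and did not pass (adjusted p = 0.106). There quantile normalization gave −1.78 (adjusted p = 0.000662), and without RAD21 block replicate 2 it was −1.28 (adjusted p = 0.0482).

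Meg3 is a maternally expressed noncoding RNA downstream of Dlk1. Its start site (chr12:110781078-110781384, over an exon, 1867 bp downstream of the gene start) had a peak in all 14 libraries. RAD21 folds there were 6.58 and 8.64 in block libraries, 5.42 and 8.9 in control libraries, 4.81, 5.04 and 4.88 in Ig2b deleted libraries and 4.22, 5.72 and 3.55 in Ig2b wild type libraries. NIPBL folds were 5.44 and 2.69 in block libraries, against 2.74 and 2.78 in control libraries, so block replicate 1 stood apart.

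Covered length at the Meg3 start site did not pass between RAD21 and NIPBL (log2 difference 0.37, adjusted p = 0.149), and its direction turned with the scaling: it was −0.89 with quantile normalization (adjusted p = 0.0343), and 1.44 both with −log10 q of at least 3 and with lists matched in length, settings that left NIPBL under 100 bp on average. Downstream of Meg3, in an intron of Rian, another noncoding RNA of the cluster, a site 68.0 kb from the Meg3 start had peaks in all 10 RAD21 libraries, with folds from 4.82 to 10.7, and in 1 NIPBL library. Of the 27 sites in the Meg3 window, 25 had no RAD21 peak and a peak in 1 NIPBL library.

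Peg3, a paternally expressed zinc finger protein, had almost no RAD21 in its window. A site at its annotated start (chr7:6682667-6683143) had no RAD21 peak and NIPBL peaks in 3 libraries, with folds from 2.77 to 3.67. The RAD21 site seen most often lay 70.5 kb downstream of the start, beyond the gene end, with peaks in 5 of 10 libraries and folds from 3.74 to 3.99; 4 of the 5 were the dCas9 libraries and 1 was an Ig2b deleted library. Covered length in the whole window was 290 and 139 bp in RAD21 block libraries, 175 and 179 bp in RAD21 control libraries, 0, 152 and 0 bp in Ig2b deleted libraries and 0 bp in all 3 Ig2b wild type libraries.

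Mest encodes a paternally expressed enzyme of the alpha/beta hydrolase family. Its main promoter, where RefSeq also places a start, lay under a site with RAD21 in no library and NIPBL in all 4 (chr6:30687881-30688409). NIPBL folds there were 4.26 and 3.23 in block libraries, against 3.57 and 2.78 in control libraries, so the groups overlapped. RAD21 covered 0 bp in every library, against NIPBL with 529 and 123 bp in block and 360 and 170 bp in control libraries. Just upstream, in an intron of a longer Mest transcript, a RAD21 site (chr6:30686935-30687267) had peaks in 8 of 10 RAD21 libraries, with folds from 3.7 to 6.49, and in 3 NIPBL libraries, with folds from 3.17 to 3.63. It had no peak in replicates 1 and 3 of Ig2b wild type. The difference of covered length there was 0.77 (adjusted p = 0.119); it was 1.88 with −log10 q of at least 3 and 1.18 with lists matched in length, settings that left NIPBL under 100 bp on average.

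The strongest NIPBL site of the Mest window was 29.6 kb upstream, over an exon and the start of Tsga14. RAD21 had a peak there in 1 of 10 libraries, block replicate 2, with a fold of 3.57. The NIPBL folds were 8.72 and 4.63 in block libraries and 5.21 and 4.1 in control libraries.

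Grb10 encodes an adaptor that restrains insulin and growth factor signalling, and its parental expression differs between brain and other tissues. The strongest RAD21 site of all 9 windows lay inside it, in an intron at chr11:11872886-11875665, 63.0 kb downstream of the annotated gene start and 2241 bp upstream of an internal transcript start. RAD21 folds were 13.9 and 19.1 in block libraries, against 14.8 and 16.8 in control libraries, and 19.6, 21.3 and 18.7 in Ig2b deleted libraries, against 18.1, 20.9 and 17 in Ig2b wild type libraries. The groups overlapped in both comparisons. Within each list, at least 97.8% of peaks had a lower fold.

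The RAD21 peaks of the Grb10 63.0 kb site were also wide. They covered 1463 and 2124 bp in block libraries, 1635 and 2359 bp in control libraries, 1020, 1638 and 849 bp in Ig2b deleted libraries and 1047, 756 and 1020 bp in Ig2b wild type libraries. NIPBL had a peak in 1 of 4 libraries, block replicate 2, which covered 315 bp with a fold of 3.05. The other NIPBL libraries covered 0 bp there.

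Weaker RAD21 sites followed it toward the end of Grb10. Sites 70.0 kb, 74.6 kb and 77.2 kb from the start had peaks in 8, 8 and 9 RAD21 libraries and in 2, 4 and 3 NIPBL libraries. RAD21 folds ran from 3.22 to 4.25, from 2.99 to 4.57 and from 3.4 to 4.19 at these sites, against NIPBL folds from 3.09 to 4.38, from 3.04 to 5.18 and from 2.96 to 3.61. The site at 70.0 kb did not pass (difference 1.33, adjusted p = 0.182), nor did the site at 74.6 kb (−0.14, adjusted p = 0.798). At the site at 77.2 kb the difference was 1.60 (adjusted p = 0.0445); it lost the call with no length filter (adjusted p = 0.0915), with quantile normalization (adjusted p = 0.135), with the replicate number as a block (adjusted p = 0.0584), with all 10 RAD21 libraries (adjusted p = 0.0726), and without any of 6 of the 8 libraries (RAD21 block replicates 1 and 2, RAD21 control replicate 2, NIPBL block replicates 1 and 2 and NIPBL control replicate 2).

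**Figure D2:**
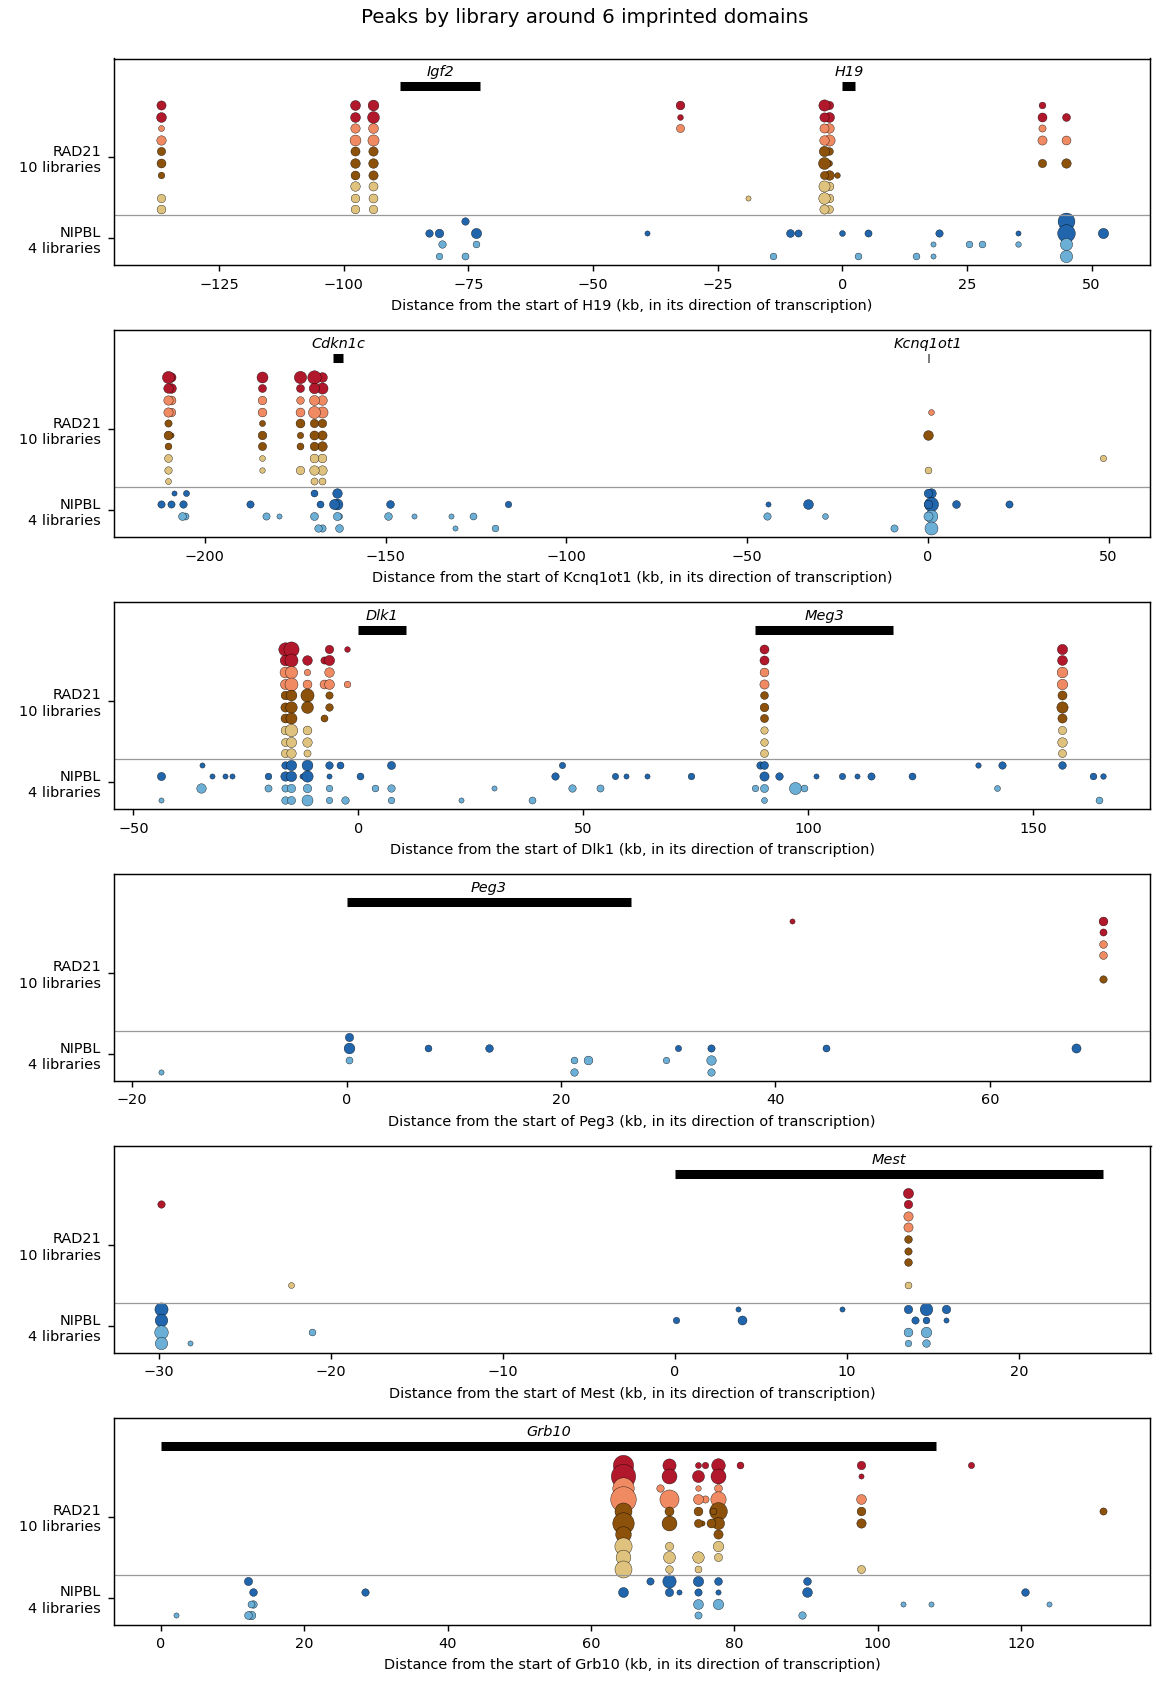
Peaks by library around the 6 domains; the x axis is the distance in kb from the start of the first member in its direction of transcription, each row is a library (RAD21 block, control, Ig2b deleted and Ig2b wild type above the line, NIPBL block and control below it) and the circle area grows with covered bp. Only the start of Kcnq1ot1 could be placed, so it is drawn as a thin mark. RAD21 circles stack in columns upstream of H19, Igf2, Cdkn1c and Dlk1 and inside Grb10, while many NIPBL circles stand alone.

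Across the 9 windows, RAD21 peaks fell on 45 of the 167 sites and NIPBL peaks on 140, with 18 sites in common. Over all 346850 sites, 43.5% had a RAD21 peak, 67.0% a NIPBL peak and 10.5% both. The member share was thus lower for RAD21, higher for NIPBL and close for sites with both, which was not tested. A RAD21 peak in all 10 libraries was present at 12 sites (7.19%), against 7.37% of all sites. A NIPBL peak in all 4 libraries was present at 10 sites (5.99%), against 6.77% of all sites. All 10 RAD21 and no NIPBL library had a peak at 5 sites (2.99%), against 4.23% of all sites, and all 14 libraries had one at 3 sites (1.8%), against 1.32%. The shares for peaks in every library of a protein were close to the background and are not a result about imprinted genes. At 1 site (0.599%), the Mest promoter, no RAD21 library and all 4 NIPBL libraries had a peak, against 2.61% of all sites. A peak in 1 library of the 14 was present at 116 sites (69.5%), against 63.4% of all sites.

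Of the 12 sites with RAD21 in every library, 4 lay around H19 and Igf2, 4 around Dlk1 and Meg3, 3 around Cdkn1c and 1 in Grb10, with none at Peg3 or Mest. Their RAD21 folds ran from 3.55 to 21.3. Of the 12, 5 lay within 5 kb of a member's start and 7 within 5 kb of any gene's start.

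In the fit across sites, 27 of the 167 member sites were long enough on average to be tested, and at 10 of these both proteins reached 100 bp on average. Of the 10, 4 were called higher in RAD21 (the Dlk1 sites at 14.5, 16.0 and 6.3 kb and the Grb10 site at 77.2 kb) and 1 lower (the H19 44.2 kb site). Over all sites with both proteins at 100 bp, 33.7% of 15881 were called, 17.8% higher and 15.9% lower. Over all 60150 sites tested the share was 73.9% (50.9% higher and 23.0% lower), most of them with 1 protein under 100 bp, and it is not set against the members. The limma p-values were adjusted over all 60150 sites, of which 45635 had an unadjusted p under 0.05 and 44434 were called. The adjustment therefore removed few calls, and the calls at the 10 sites and the 33.7% rest on it.

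Over whole windows (gene body and 50 kb on each side), 7 members passed the filter of 500 bp on average. Igf2 passed it through RAD21 alone and Mest through NIPBL alone, so their values are given without a test. Of the 5 with both proteins at 500 bp (H19, Cdkn1c, Meg3, Dlk1 and Grb10), Grb10 was called, higher in RAD21, against 19.7% of 18606 such windows, 11.3% higher and 8.39% lower. A call at 1 of 5 is close to that share and is not a result about imprinted genes. Over all 21437 windows tested 27.5% were called, 14.2% higher and 13.2% lower. That split moved with the setting: it was 5492 windows higher and 1491 lower with −log10 q of at least 3, and 2116 higher and 5947 lower with all 10 RAD21 libraries. In the Grb10 window RAD21 covered 3310 and 4213 bp in block and 2035 and 5236 bp in control libraries, against NIPBL with 1644 and 1567 bp in block and 1106 and 754 bp in control libraries. All 4 RAD21 libraries lay above all 4 NIPBL libraries, and the difference was 1.22 ± 0.30 on the log2(bp + 500) scale (SE, limma adjusted p = 0.0102). It did not pass without NIPBL control replicate 2 (adjusted p = 0.0502), nor in control libraries alone (1.43, adjusted p = 0.229) or block libraries alone (1.01, adjusted p = 0.0908).

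In the Igf2 window RAD21 covered 1189 and 1160 bp in block and 861 and 1075 bp in control libraries, against NIPBL with 156 and 765 bp in block and 281 and 248 bp in control libraries. These groups did not overlap either, with a difference of 0.91 ± 0.27 (SE), and of 0.55 with a 20 kb flank.

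In the Mest window RAD21 covered 333 and 368 bp in block and 271 and 264 bp in control libraries, against NIPBL with 1647 and 1208 bp in block and 1354 and 845 bp in control libraries. Every RAD21 library lay below every NIPBL library, and the difference was −1.11 ± 0.25 (SE). Windows whose groups did not overlap made up 29.0% of all windows tested. That share also holds windows that passed the filter through 1 protein alone, as Igf2 and Mest did, so these are not set against it. Among the members with both proteins at 500 bp, only the Grb10 groups did not overlap.

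The other members with both proteins at 500 bp did not pass. The difference was 0.67 ± 0.31 for Cdkn1c (adjusted p = 0.125), −0.02 ± 0.25 for Dlk1 (adjusted p = 0.958), −0.13 ± 0.28 for H19 (adjusted p = 0.766) and −0.38 ± 0.30 for Meg3 (adjusted p = 0.378). Cdkn1c passed with lists matched in length (1.27, adjusted p = 0.00270) and with quantile normalization (0.69, adjusted p = 0.0400), and was at 2.12 with −log10 q of at least 3, which left NIPBL under 500 bp on average. Dlk1 was higher in RAD21 with −log10 q of at least 3 (0.66, adjusted p = 0.0170). At H19 the RAD21 libraries covered 976, 1093, 884 and 1211 bp and the NIPBL libraries 999, 2219, 865 and 927 bp, so similar lengths came from different sites.

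Kcnq1ot1 and Peg3 were under the length filter of this fit. The Kcnq1ot1 window held 0 and 0 bp of RAD21 in block and 0 and 76 bp in control libraries, against 510 and 1581 bp of NIPBL in block and 1033 and 717 bp in control libraries. In the Peg3 window NIPBL covered 205 and 1307 bp in block and 891 and 371 bp in control libraries, which overlapped the RAD21 values given above.

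**Figure D3:**
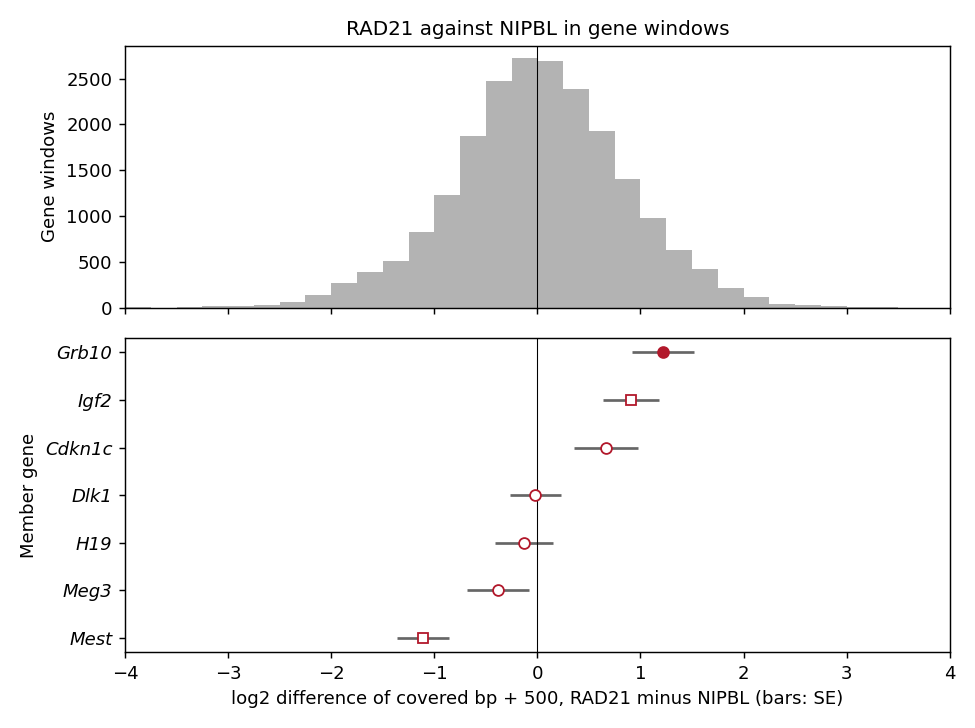
Top: number of gene windows by log2 difference of covered bp plus 500, RAD21 minus NIPBL, in the dCas9 libraries. Bottom: the 7 members fitted with their SE, as circles where both proteins reached 500 bp on average and as squares where 1 did not, with a filled circle where the adjusted p was under 0.05. Grb10 (filled) and Igf2 (square) lie to the right and Mest (square) to the left of 0.

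Near starts, presence in every library asks more of RAD21 (10 libraries) than of NIPBL (4), so the 2 counts are not set against each other. Internal transcript starts count too: the Grb10 site with RAD21 in all 10 libraries lay 63021 bp from the gene start. Members had from 1 (Cdkn1c) to 11 (Mest) transcript starts, and a gene with more starts is searched over more sequence. The shares over all genes were not matched for the number of starts. Within 5 kb of a transcript start, 4 of the 9 members had a RAD21 peak in all 10 libraries (H19, Cdkn1c, Meg3 and Grb10), against 28.9% of all genes. All 4 NIPBL libraries had a peak at 7 of the 9 (Igf2, Kcnq1ot1, Cdkn1c, Meg3, Dlk1, Mest and Grb10), against 52.1% of all genes. H19 had NIPBL near its start in 2 of 4 libraries and Peg3 in 3 of 4. Igf2 and Peg3 had no RAD21 peak near a start in any library, as 35.3% of all genes had none. No member was without NIPBL near its start in every library, as 19.7% of all genes were. With −log10 q of at least 3, the 4 fell to 2 and the 7 to 0.

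The dCas9 block made no difference that passed at any member. In RAD21, 0 of 20301 windows were called by limma (0.0%), and 0 had an unadjusted p under 0.05. Same-numbered block and control libraries deviated alike (correlation 0.834), and this fit left that in its spread. With the replicate number as a block in limma, 213 windows had an unadjusted p under 0.05 and 0 were called. Differences of the 6 members tested ran from −0.05 for Meg3 to 0.26 for Cdkn1c, with a median of 0.13, beside 0.16 over all windows tested. Igf2 lay higher in block (1189 and 1160 bp) than in control (861 and 1075 bp) and Meg3 lower (567 and 590 bp in block, 608 and 620 bp in control), each with no overlap, as in 8.06% of windows tested. The Igf2 value was higher in block within both replicate numbers, which in these RAD21 lists also had peak names of different styles. With the Igf2 difference at 0.19 ± 0.48, neither a change of this size nor its absence could be told at 2 libraries a group. This SE also holds the difference between replicate numbers.

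In NIPBL, 0 of 21179 windows were called by limma (0.0%), with 1565 at an unadjusted p under 0.05, none of them a member. All 8 members tested had a difference above 0, from 0.04 for Peg3 to 0.57 ± 0.27 for Grb10 (adjusted p = 0.598), with a median of 0.21, beside 0.24 over all windows tested. H19 (999 and 2219 bp in block, 865 and 927 bp in control) and Grb10 (1644 and 1567 bp in block, 1106 and 754 bp in control) did not overlap, as in 45.8% of all windows tested. The test of whether the block difference itself was unlike in NIPBL and RAD21 called 0 of 21437 windows (limma, 0.0%, 16 at an unadjusted p under 0.05), and the members lay between −0.21 ± 0.67 for Cdkn1c and 0.54 ± 0.60 for H19.

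By presence, no member site was gained or lost in RAD21 with the block, while 0.404% and 0.0983% of all sites were. In NIPBL, 3 member sites had a peak in both block and in no control library (1.8%, against 1.63% of all sites), 1147 bp downstream of a Mest transcript start and 69957 bp and 89967 bp downstream of the Grb10 start. There were 4 with a peak in both control and in no block library (2.40%, against 1.13%), in a Peg3 exon, 18.2 kb downstream of the H19 start, in Cdkn1c and near an internal Grb10 start. The folds of these 7 ran from 2.74 to 4.38.

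The Ig2b deletion also made no difference that passed. Of 17761 windows, 0 were called by limma (0.0%), with 1300 at an unadjusted p under 0.05, none of them a member. With the replicate number as a block in limma, 5579 windows had an unadjusted p under 0.05 and 0 were called. The 5 members tested were all above 0, from 0.11 ± 0.26 for H19 and 0.11 ± 0.23 for Igf2 to 0.43 ± 0.34 for Grb10 (adjusted p = 0.557). Their median of 0.32 was that of all windows, and with quantile normalization the median of all windows was −0.01. In the Grb10 window RAD21 covered 3116, 3662 and 1115 bp in deleted libraries, against 1606, 1872 and 1509 bp in wild type libraries. Deleted replicate 3, the shortest of the RAD21 lists, lay below all 3 wild type libraries, and the other two deleted libraries lay above them. Without it the Grb10 difference was 0.85 and passed (adjusted p = 0.0390), and 3220 windows were called. No member showed groups apart in this comparison, as 10.9% of windows tested did, and no member site was gained or lost (0.259% and 0.0554% of all sites).

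**Figure D4:**
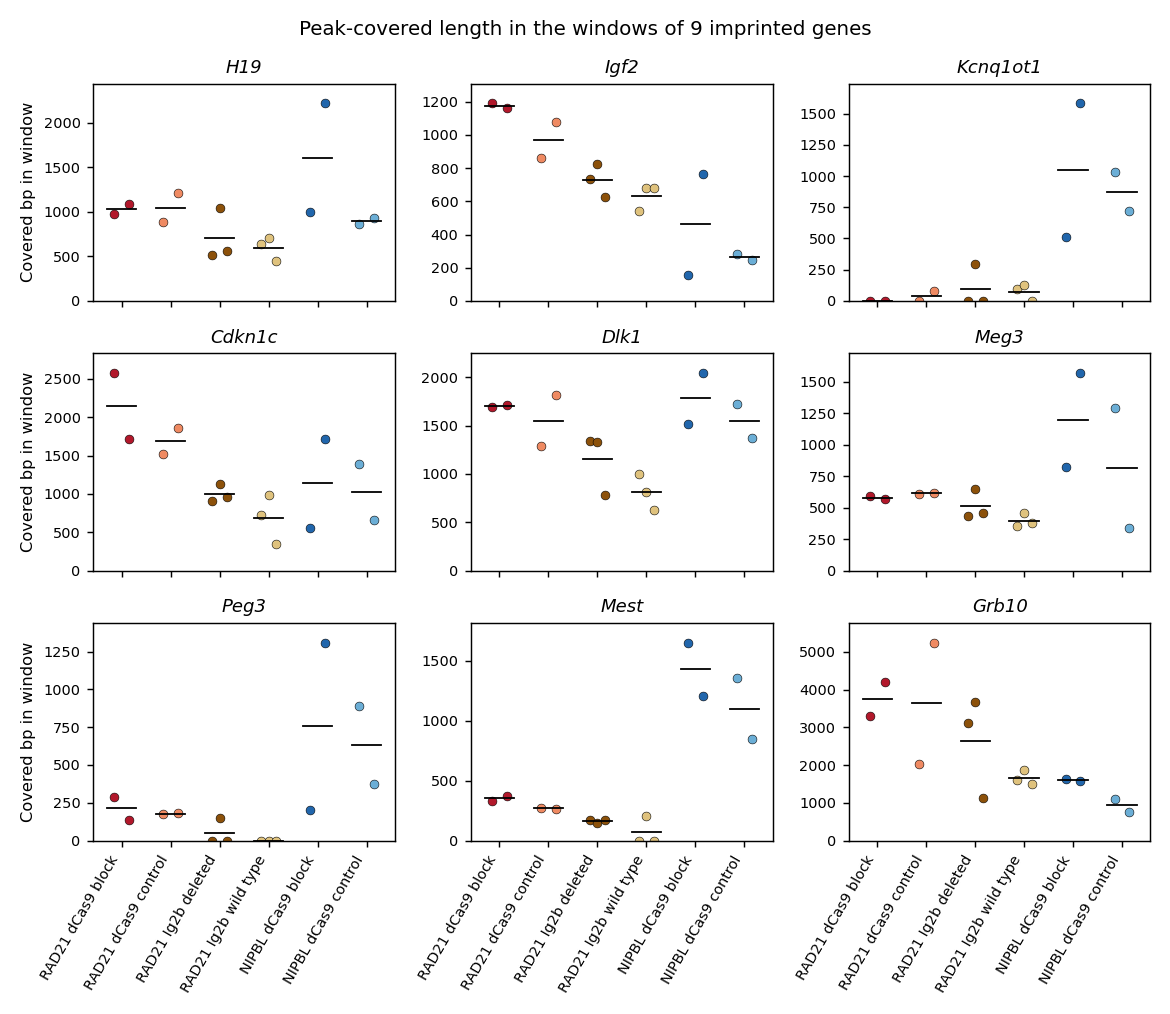
Covered bp in the window of each of the 9 genes, by library (points) with the mean of each group (line), in the order RAD21 block, control, Ig2b deleted and Ig2b wild type, then NIPBL block and control. RAD21 points lie below NIPBL in Kcnq1ot1 and Mest, and the dCas9 RAD21 points lie above NIPBL in Igf2 and Grb10, and 1 deleted library (1115 bp) stands apart in Grb10.

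Other imprinted genes were called in both directions between RAD21 and NIPBL. Of 42 listed, 41 were annotated and 34 passed the filter; 27 of these had both proteins at 500 bp on average. Of the 27, 5 were called higher and 1 lower in RAD21, against 11.3% and 8.39% of all 18606 such windows. The calls were few, and their shares were not tested against those of all windows. Their median difference was 0.31, beside 0.03 over all such windows. Ube3a, a ubiquitin ligase gene of the Prader-Willi cluster, was lower in RAD21 (−1.08 ± 0.35, adjusted p = 0.0377), and Ddc, the decarboxylase gene next to Grb10, was higher (1.07 ± 0.29, adjusted p = 0.0156). Snrpn, a spliceosome protein gene of the Prader-Willi cluster, passed the filter through NIPBL alone, with RAD21 at 0 to 57 bp and NIPBL at 1212 to 1894 bp. Ins2, an insulin gene next to Igf2, passed it through RAD21 alone, with a difference of 1.13 ± 0.28. The windows of Ins2 and Ddc overlap those of Igf2 and Grb10, as 10 of the 41 windows overlap a member's, and so share sites with them. Near starts, 14 of the 41 had RAD21 in all 10 libraries (34.1%, against 28.9% of all genes) and 14 had NIPBL in all 4 (34.1%, against 52.1%). No other imprinted gene was called with the block or the deletion.

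Genes on other chromosomes whose windows moved most alike over the 14 libraries were, by Pearson's r of log2(bp + 500), Asgr1 for H19 (0.963), A330008L17Rik for Kcnq1ot1 (0.970) and Mmp24 for Dlk1 (0.981). They were Rabl2 for Peg3 (0.968), Nploc4 for Mest (0.979) and Tpp2 for Grb10 (0.982). The median r over all genes compared was already 0.362 to 0.749; all windows share the 14 libraries. Just inside the limit of 50 kb lay the Igf2 site with 9 RAD21 libraries, at 47.87 kb from the gene, and the Peg3 site with 5, at 43.94 kb. Just outside it the nearest site of each gene had a peak in at most 4 of the 14 libraries (3 RAD21 and 1 NIPBL, 51.18 kb from Grb10).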

How the data were processed

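RAD21 and NIPBL ChIP-seq peak lists of 14 libraries were used; the 4 inputs were not used here. Per the submitters' processing notes, the tools were Bowtie2 2.2.8, SAMtools 1.8 and MACS2 (version not given in the sources used here), on mm9. The lists are 9-column broadPeak tables, called per library. Per the peak names in the deposited lists, the RAD21 dCas9 and NIPBL lists had a control library, while those of the Ig2b lists name no control and carry a mark for removed duplicates. The authors deposited a fold ratio, −log10 p, −log10 q and a score for each peak; the score was not used. Read depth per library was unknown.

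Genes came from GENCODE vM1 on NCBIM37 (mm9). Kcnq1ot1 is missing from that annotation, so its start was placed by an exact match of the RefSeq GRCm38 promoter; its body was not placed. Covered bp (union of peaks) per gene window, or per merged site, was compared as log2 of bp plus 500 (windows) or 100 (sites), with means of at least that many bp, by limma 3.58.1 in R 4.3.3 without normalization (two-sided, Benjamini-Hochberg over all features, adjusted p under 0.05). RAD21 against NIPBL used the dCas9 libraries, with the block as a covariate. Python 3.11.15, numpy 2.4.6, pandas 2.3.3 and matplotlib 3.10.9 did the rest. The fits and the coverage code were tested on simulated data. Named genes were all members, up to 4 called genes of the other imprinted list, and the gene most alike per domain; named sites were those in all libraries of a protein, or gained or lost, beside the most frequent. Members, lists and rules were chosen with earlier results of these data known; the H19 sequences, the crossed replicate numbers and the choice to give RAD21 to NIPBL tests only where both proteins reached the length minimum on average were added after the values were seen.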

Additional observations from a re-analysis of the deposited data

How the results depend on the processing

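The RAD21 to NIPBL count of called windows (5886) was 11196 with quantile normalization, 194 in control libraries alone, 3109 in block libraries alone and 3488 to 8054 without 1 library; called sites (44434) were 38295 to 42141 without 1 library. The 0 calls of the RAD21 block and of the test between proteins held throughout. The NIPBL block had 0 to 159 without 1 library, and the Ig2b deletion had 2 with 100 bp added, 122 with quantile normalization, 34 with −log10 q of at least 3, 21 with lists matched in length and 0 to 3220 without 1 library. Reversed were Dlk1 (0.66 with −log10 q of at least 3), the Dlk1 6.3 kb site (0.92, but −0.31 with quantile normalization) and the Meg3 start site (−0.89 with quantile normalization). With at least 50% of a site covered, member sites in all 10 RAD21 fell to 1, in all 4 NIPBL to 1, in RAD21 alone to 1 and in all 14 libraries to 0; with −log10 q of at least 3 they were 7, 4, 6 and 1, and starts in all 10 RAD21 or 4 NIPBL 2 and 0. Without 1 library these were 12 to 14, 10 to 14, 5 to 6, 3, 4 and 7 to 8. The cause was not tested. The labels tie replicate numbers to nothing shared. Deviations of same-numbered libraries correlated by 0.834 between RAD21 block and control and by 0.12 between NIPBL block and control. The values were 0.0289 to 0.268 between Ig2b groups (2 of 3 numbers matched their own best) and −0.27 and −0.146 between RAD21 and NIPBL. The numbers were not taken as pairs in the main fits. For RAD21 block against control, where the correlation was high, the main fit therefore left the difference between numbers in its spread. With number as a block in limma, 7334 windows and 45786 sites were called between RAD21 and NIPBL and 0 in the other comparisons. Windows at an unadjusted p under 0.05 were then 213 for the RAD21 block (0 without number). They were 1088 for the NIPBL block (1565 without) and 5579 for the Ig2b deletion (1300 without). Among members, number as a block ended the call of the Grb10 77.2 kb site. It also made the Dlk1 site at 11036 bp pass (−0.96, adjusted p = 0.0454). The crossed pairing, added after seeing the data, gave 7243 windows and 46256 sites. With both proteins at the length minimum, added after seeing the data, 3668 windows and 5344 sites were called. Read depth was unknown, so what it limits was not tested.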

Other observations

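Most NIPBL sites in these windows came from single lists, as did most NIPBL sites over all windows. Of the 167 member sites, 104 (62.3%) had no RAD21 peak and a peak in 1 NIPBL library, against 45.5% of all sites. Among sites with a NIPBL peak they were 104 of 140, against 157712 of 232420 over all sites. Block replicate 2, the longest NIPBL list, held 49 of the 104 (47.1%, against 38.6% of all such sites) and block replicate 1 held 11 (10.6%, against 8.87%). Control replicate 1 held 29 (27.9%, against 25.9%) and control replicate 2 held 15 (14.4%, against 26.6%). These sites had a median length of 124.5 bp and a median fold of 2.78, with folds from 2.69 to 4.42. By gene, 25 such sites lay in the Meg3 window, 20 in that of Cdkn1c, 19 in that of Dlk1 and 14 in that of H19, against 3 in that of Igf2. A site in overlapping windows counts in each of them.

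The member sites were richer in G and C than the rest. In the 200 bases at the centre of each site the median GC content was 58.0% over the 167 member sites, against 48.5% over all sites, and the median number of CpG pairs was 5, against 2. The Mest promoter site, with RAD21 in no library and NIPBL in all 4, had a GC content of 68.0% and 15 CpG pairs. Over all sites of that class the medians were 63.0% and 12.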
